A study of Mus musculus with 8 samples.

Results

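The genes described here encode 17-beta-hydroxysteroid dehydrogenases and steroid 5-alpha-reductases in mouse kidney. They were chosen by symbol: Hsd17b1, Hsd17b2, Hsd17b8, Hsd17b10, Hsd17b11, Hsd17b12 and Hsd17b14 for the dehydrogenases, and Srd5a1, Srd5a2 and Srd5a3 for the reductases. Of these 10 genes, 9 were found by symbol among the 54532 genes of the deposited table. Hsd17b8 was found under the name H2-Ke6 (ENSMUSG00000073422), an older name that RefSeq pairs with it.

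Enzymes of the Hsd17b family add or remove hydrogen at carbon 17 of sex steroids, which moves estrogens and androgens between their more and less active forms. Several of them act mainly on fatty acyl chains, on amino acid breakdown products or on mitochondrial RNA, so the family name does not give the main substrate of each member. Steroid 5-alpha-reductases convert testosterone to dihydrotestosterone, a more potent androgen. The mouse kidney is an androgen target whose proximal tubule differs between males and females.

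Polyadenylated RNA was sequenced from whole kidney samples of ICR mice, an outbred stock, in 4 libraries after bisphenol A (BPA) and 4 after vehicle. BPA is a monomer of polycarbonate plastics that binds estrogen receptors weakly. No transgene, deletion or second agent is named for either group, and the sources used here give no dose, route, duration, vehicle, age or sex. Whether each library is a different animal is not stated in the labels, so the p-values rest on library-to-library spread that could be technical.

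Promoter sequences of 4 members show the region just before the start of transcription. They are Hsd17b11, the most abundant member, Hsd17b12, whose level varied least, and Srd5a1 and Srd5a2, the reductases that act on testosterone. The sequences are from RefSeq on GRCm38.p6, the build of the deposited coordinates, and run 5′ to 3′ on the strand of the gene. Only bases before both the deposited gene start and the RefSeq start are shown. Capitals mark a GC box (GGGCGG, or CCGCCC on the other strand) or a CCAAT box (CCAAT, or ATTGG on the other strand). Boxes that cross or follow the end of a shown sequence are not marked.
Hsd17b11, chr5:104021920-104022046, minus strand: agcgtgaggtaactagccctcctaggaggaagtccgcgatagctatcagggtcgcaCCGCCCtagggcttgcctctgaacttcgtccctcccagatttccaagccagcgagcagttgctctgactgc
Hsd17b12, chr2:94157965-94158159, minus strand: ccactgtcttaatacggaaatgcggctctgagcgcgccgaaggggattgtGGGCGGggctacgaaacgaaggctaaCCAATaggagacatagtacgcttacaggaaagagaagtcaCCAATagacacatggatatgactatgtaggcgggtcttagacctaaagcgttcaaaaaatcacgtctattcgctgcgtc
Srd5a1, chr13:69611464-69611713, minus strand: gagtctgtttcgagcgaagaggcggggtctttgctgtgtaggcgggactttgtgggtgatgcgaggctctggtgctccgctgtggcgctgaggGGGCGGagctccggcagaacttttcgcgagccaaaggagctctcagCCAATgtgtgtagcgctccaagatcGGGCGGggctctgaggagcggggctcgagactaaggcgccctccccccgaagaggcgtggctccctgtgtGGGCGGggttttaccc
Srd5a2, chr17:74047917-74048110, minus strand: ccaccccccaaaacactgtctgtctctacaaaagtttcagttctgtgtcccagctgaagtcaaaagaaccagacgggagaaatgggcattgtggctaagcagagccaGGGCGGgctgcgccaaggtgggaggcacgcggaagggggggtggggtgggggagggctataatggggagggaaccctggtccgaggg

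The RefSeq promoter table held 7 of the 10 members, as windows of 300 bases (250 before and 50 after the RefSeq start). Positions count from that RefSeq start. For Hsd17b11, Hsd17b12 and Srd5a2 the deposited gene starts upstream of it, so the shown sequence ends before the RefSeq start. The Hsd17b12 promoter held 2 CCAAT boxes, at -174 and -134, and a GC box at -200. Its ratio of observed to expected CpG dinucleotides was 1.18, above 99.3% of the 32851 promoters of the table, whose median was 0.384. The Srd5a1 window held 4 GC boxes, at -157, -86, -16 and 23, and CCAAT boxes at -111 and -2. The Srd5a2 window held GC boxes at -143 and -58 and no CCAAT. The Hsd17b11 window held a GC box at -194 and a CCAAT box at -115, the latter within transcribed bases that are not shown. The CpG ratios were 0.74 for Hsd17b11, 0.85 for Srd5a1 and 0.53 for Srd5a2. Of all promoters, 35.7% held a GC box and 37.4% a CCAAT box on either strand. The TATA box letters TATAAA, searched on both strands, were in no window of these 7 members and in 13.6% of all promoters. The nuclear receptor half-site AGGTCA was likewise in none of the 7, against 16.3% of all promoters. A match, or its absence, describes the letters of a window and was not tied to binding of a factor.

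The deposited values are FPKM, reads scaled by gene length and library size, and the reads worked back from them total 15944081 to 17351540 per library. Markers of the proximal tubule summed to 4300 to 5235 FPKM in vehicle and 4369 to 5704 FPKM in BPA, with all 10 markers present. Vehicle replicate 4 stood apart: its 5 skeletal muscle markers summed to 224 FPKM against at most 1.17 FPKM elsewhere. All 8 fat markers were above 0 in that library and summed to 299 FPKM, against 3.22, 95.7 and 31.8 FPKM in the other vehicle libraries and 2.38 to 20.4 FPKM in BPA. Its 4 markers of the thick ascending limb summed to 158 FPKM, against 355 to 667 FPKM elsewhere. The 5 endothelium markers summed to 24.62, 28.57, 8.989 and 12.3 FPKM in vehicle replicates 1 to 4. In BPA replicates 1 to 4 they were at 29.72, 34.96, 15.68 and 18.02 FPKM. Among the marker lists, only endothelium and stroma were lower in replicates 3 and 4 than in replicates 1 and 2 of both groups. Podocyte markers were so in vehicle, at 43.23, 45.28, 12.47 and 10.35 FPKM, but not in BPA. BPA replicate 4 had reads on 17174 genes, against 19090 to 20845 in the others. Mitochondrially encoded genes took 7.02% to 8.33% of reads in vehicle and 9.66% to 14.2% in BPA. Across 13364 genes, changes went with GC content of the transcript (Spearman rho = -0.402, over genes, which are not independent replicates). The 7 markers of the adrenal cortex summed to 0.715 to 1.54 FPKM in vehicle and 0.766 to 1.21 FPKM in BPA. Star, at 0.531 to 1.05 FPKM, and Hsd3b1, at 0.0311 to 0.559 FPKM, gave most of these sums, while Cyp11a1, Cyp11b2 and Nr5a1 were at 0 in all libraries. In such bulk samples, fewer cells of a type and less RNA per cell cannot be told apart.

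The level of these genes in kidney spanned from among the highest of all genes to almost none. Hsd17b11 was the highest at 284 ± 88.3 FPKM (SD, n = 8 libraries), a mean above that of 99% of the 13376 genes tested (those with a mean of at least 0.5 FPKM). Hsd17b10 followed at 60.8 FPKM and Hsd17b12 at 42.5 FPKM, above 94.0% and 91.6% of tested genes. Srd5a2 at 8.80 FPKM, Srd5a1 at 7.0 FPKM and Hsd17b2 at 6.93 FPKM formed a middle group. Srd5a3 was at 2.77 FPKM, above 36.8% of tested genes, and Hsd17b14 at 0.740 FPKM, above 7.78%. Hsd17b1 at 0.181 FPKM and Hsd17b8 at 0.0325 FPKM were under the level required for a test.

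Neighbours in this order were compared within libraries by a 2-sided exact sign-flip permutation test of the log2 ratio (FPKM + 0.1), adjusted over 9 pairs. In 6 pairs the higher gene led in 8 of 8 libraries (adjusted p = 0.0117 each; the unadjusted p of 0.00781 is the smallest that 8 libraries allow). The level of Srd5a2 did not differ from that of Srd5a1 beyond the spread: it was higher in 3 of 8 libraries (adjusted p = 0.75, exact test). Srd5a1 was higher than Hsd17b2 in 5 of 8 libraries (adjusted p = 0.75, exact test), and Hsd17b1 was higher than Hsd17b8 in 5 of 8 (adjusted p = 0.0804, exact test). By the median in place of the mean, Srd5a1 and Hsd17b2 stood before Srd5a2. Without vehicle replicate 4 the middle group ran Hsd17b2, Srd5a1, Srd5a2.

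**Figure D1:**
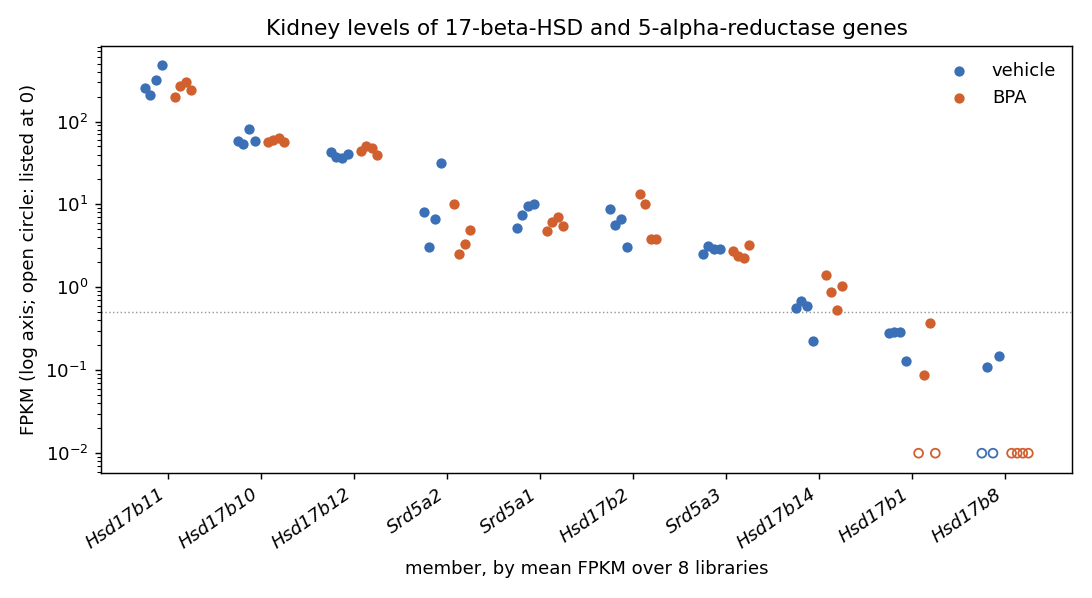
FPKM of each gene in each library on a log axis, ordered by the mean over 8 libraries; filled circles are libraries (blue vehicle, orange BPA), open circles are libraries listed at 0, and the dotted line is the 0.5 FPKM needed for a test. Hsd17b11, Hsd17b10 and Hsd17b12 lie above all others, and the vehicle and BPA points of each gene share a range.

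No member passed the test of BPA against vehicle (limma on log2(FPKM + 1), Benjamini-Hochberg adjusted over all tested genes). Of the 8 members tested, 0 reached an adjusted p under 0.05, where 0.00748% of all genes (1 of 13376) did. At an unadjusted p under 0.05 there were again 0 members, where 11% of all genes (1473, of them 559 higher and 914 lower in BPA) passed. In 0 of 8 members did the groups' FPKM fail to overlap, against 7.89% of all tested genes. The estimate was above 0 for 3 members and below 0 for 5, with a median of -0.08 beside -0.01 over all genes, of which 48% were above 0. Adjusted p ran from 0.472 to 0.853. A p that misses the threshold does not show that levels were equal. The intervals given below state which changes on log2(FPKM + 1) these libraries leave possible. On that scale the changes of low genes are understated.

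**Figure D2:**
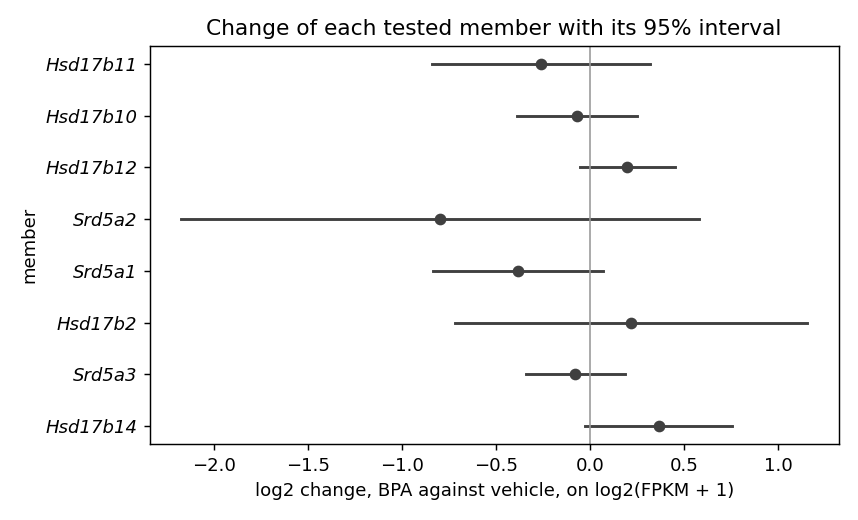
Log2 change of BPA against vehicle on log2(FPKM + 1) for the 8 tested members (dot) with the 95% interval of the limma estimate (line); the vertical line marks no change. All 8 intervals include 0, from the narrowest, Hsd17b12 at -0.06 to 0.45, to the widest, Srd5a2 at -2.17 to 0.58.

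Among the dehydrogenases that reduce their substrate, Hsd17b12 was well expressed and Hsd17b1 was close to undetected. Hsd17b12 reduces ketoacyl-CoA during elongation of very long chain fatty acids in the endoplasmic reticulum, and the mouse enzyme also reduces estrone and androstenedione. Its gene (ENSMUSG00000027195) lies on the minus strand at chr2:94032689-94157964 of GRCm38. It was at 42.7, 37.7, 36.7 and 40.8 FPKM in vehicle replicates 1 to 4 and at 43.9, 50.6, 47.8 and 39.7 FPKM in BPA replicates 1 to 4. BPA replicates 1 to 3 exceeded the whole vehicle range and BPA replicate 4 lay inside it, so the groups overlap. The means were 39.5 ± 2.77 and 45.5 ± 4.75 FPKM (SD, n = 4 each), and the log2 change was 0.20 (SE 0.112, 95% interval -0.06 to 0.45, limma adjusted p = 0.513). This was the steadiest of the tested members, with a coefficient of variation of 11.4% over the 8 libraries and a ratio of highest to lowest library of 1.38.

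Hsd17b1 reduces estrone to estradiol and is best known from ovary and placenta. Its gene (ENSMUSG00000019301) is at chr11:101078411-101080527, plus strand. It had 7, 7, 6 and 3 reads in the vehicle libraries and 0, 2, 8 and 0 reads in the BPA libraries, or 0.129 to 0.292 FPKM and 0 to 0.367 FPKM. The highest and the lowest libraries were both from BPA, so the groups overlap. The groups totalled 23 reads in vehicle and 10 in BPA, of which 8 were in BPA replicate 3, and no test was made at this level. A count of 0 still allows up to 3 reads in a library.

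The other dehydrogenases, which oxidise at least some of their substrates, included Hsd17b11, the highest member. Hsd17b11 sits on lipid droplets and the endoplasmic reticulum and oxidises androstanediol, a breakdown product of dihydrotestosterone. Its gene (ENSMUSG00000029311) covers chr5:103989762-104021919, minus strand. Vehicle replicates 1 to 4 were at 251, 212, 320 and 476 FPKM, and BPA replicates 1 to 4 at 196, 270, 304 and 243 FPKM. Vehicle replicate 4 was above every other library, and the remaining 7 overlapped. The means were 315 ± 117 and 253 ± 45.4 FPKM (SD, n = 4), a log2 change of -0.26 (SE 0.255, 95% interval -0.84 to 0.32, limma adjusted p = 0.687). With 1 library left out the change ran from -0.43 without vehicle replicate 2 to -0.041 without vehicle replicate 4, and it was -0.15 without BPA replicate 1. The part of that library's muscle and fat RNA in its Hsd17b11 value was not tested. Between 11115 and 26996 reads lay behind each value, so counting error is small beside the spread between libraries. Hsd17b11 supplied 62.9% to 82.2% of the FPKM of the 7 dehydrogenases together, which summed to 310 to 579 FPKM in vehicle and 312 to 419 FPKM in BPA.

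Hsd17b10 is a mitochondrial enzyme of isoleucine breakdown and a subunit of the mitochondrial ribonuclease that frees tRNAs from their precursors. Its gene (ENSMUSG00000025260) is at chrX:152001845-152004442, plus strand. It was at 58.2, 53.5, 80.4 and 58.7 FPKM in vehicle and at 56.8, 60.6, 62.6 and 55.9 FPKM in BPA. Vehicle replicate 3 was the high library and the other 7 lay close together, with vehicle replicate 2 lowest. The log2 change was -0.07 (SE 0.139, 95% interval -0.39 to 0.25, limma adjusted p = 0.853), and without vehicle replicate 3 it was 0.054. The direction also turned, to 0.012, with quantile normalization. The share of reads from mitochondrially encoded genes was higher in all 4 BPA libraries, as given above, and its part in this value was not tested.

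Hsd17b2 oxidises estradiol and testosterone to the weaker estrone and androstenedione. Its gene (ENSMUSG00000031844) is at chr8:117701904-117759027, plus strand. It was at 8.88, 5.67, 6.62 and 3.08 FPKM in vehicle replicates 1 to 4 and at 13.3, 10.2, 3.80 and 3.84 FPKM in BPA replicates 1 to 4. Within BPA the values split into 2 high and 2 low libraries, with the vehicle libraries between and below them. The log2 change was 0.22 (SE 0.412, 95% interval -0.72 to 1.15, limma adjusted p = 0.844). In replicates 1 and 2 alone it was 0.64, in replicates 3 and 4 alone -0.21, without vehicle replicate 4 it was -0.023 and without BPA replicate 1 it was -0.074. No label names a batch for these numbers. The part of the endothelium and stroma split between these replicates, given above, was not tested. The antisense gene Gm31774 lies within its span at 0.620 to 4.40 FPKM but shares no exon bases with it.

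Hsd17b14 is a cytosolic enzyme, and the human form oxidises estradiol. Its gene (ENSMUSG00000030825) is at chr7:45554893-45567752, plus strand. It was at 0.560, 0.684, 0.60 and 0.225 FPKM in vehicle and at 1.41, 0.868, 0.540 and 1.04 FPKM in BPA. All BPA libraries were above the vehicle mean of 0.517 ± 0.201 FPKM, but BPA replicate 3 was below vehicle replicates 1 to 3, so the groups overlap. The log2 change was 0.36 (SE 0.172, 95% interval -0.03 to 0.75, limma adjusted p = 0.472), the smallest adjusted p among the members. On log2(FPKM + 1) the change of so low a gene is understated, and it was 0.79 with 0.1 FPKM added and 0.87 by limma-voom on recovered reads, with adjusted p of 0.482 and 0.494. From 8 to 50 reads lay behind each value.

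Hsd17b8 joins with Cbr4 to form the ketoacyl reductase of mitochondrial fatty acid synthesis and oxidises estradiol in the test tube. Its gene is at chr17:34026033-34028060, minus strand. It had 0, 3, 0 and 4 reads in vehicle and 0 reads in each BPA library. Of its exon bases, 86.4% are shared with Gm20427, a transcript on the same strand that was itself at no more than 0.0302 FPKM. Among the 340 protein-coding genes with at least 80% of exon bases shared with another gene, 96.2% were under 0.5 FPKM and 74.7% were at 0 in all libraries, against 46.7% and 21.4% of the other 21611. How reads in shared exons were counted is not stated in the sources used here, so the level of Hsd17b8 is uncertain and no difference was read from it.

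The reductases that act on testosterone had similar mean levels, but Srd5a2 varied far more between libraries. Srd5a2, the form best known from the male reproductive tract, has its gene (ENSMUSG00000038541) at chr17:74016955-74047916, minus strand. It was at 8.20, 3.03, 6.64 and 31.7 FPKM in vehicle and at 10.02, 2.55, 3.37 and 4.94 FPKM in BPA. Vehicle replicate 4 was far above the other 7 libraries, and the next highest was BPA replicate 1. The means were 12.4 ± 13.0 and 5.22 ± 3.35 FPKM (SD, n = 4), a log2 change of -0.80 (SE 0.605, 95% interval -2.17 to 0.58, limma adjusted p = 0.614). Without vehicle replicate 4 the change was -0.22, without vehicle replicate 2 it was -1.23, in replicates 3 and 4 alone it was -1.63, and in replicates 1 and 2 alone it was 0.037. Vehicle replicate 4 also carried the muscle and fat markers given above, and their part in its Srd5a2 value was not tested. Nor was the part of the endothelium and stroma split between replicates 1 and 2 and replicates 3 and 4. The coefficient of variation was 109%, the largest of the tested members, and the highest library was 12.4 times the lowest.

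Srd5a1, the form found in liver and many other tissues, has its gene (ENSMUSG00000021594) at chr13:69573449-69611442, minus strand. It was at 5.18, 7.42, 9.64 and 10.3 FPKM in vehicle and at 4.77, 6.07, 7.11 and 5.51 FPKM in BPA. The 2 highest libraries were vehicle replicates 3 and 4, the lowest was BPA replicate 1, and vehicle replicate 1 lay inside the BPA range. The means were 8.12 ± 2.31 and 5.87 ± 0.986 FPKM (SD, n = 4), a log2 change of -0.38 (SE 0.199, 95% interval -0.83 to 0.07, limma adjusted p = 0.492). All 4 BPA libraries were below the vehicle mean. With 1 library left out the change ran from -0.56 without vehicle replicate 1 to -0.27 without vehicle replicate 4. The part of muscle and fat RNA in the Srd5a1 value of vehicle replicate 4 was not tested. Of its exon bases, 16.4% are shared with Gm17108, which was at no more than 0.0200 FPKM. Nsun2 covers the locus on the other strand at 13.9 to 18.7 FPKM without sharing exon bases.

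Srd5a3 is needed to make dolichol, the lipid that carries sugar chains for N-glycosylation. Its gene (ENSMUSG00000029233) is at chr5:76140271-76155504, plus strand. It was at 2.53, 3.14, 2.86 and 2.92 FPKM in vehicle and at 2.75, 2.37, 2.29 and 3.27 FPKM in BPA. BPA replicates 2 and 3 were below the vehicle range, replicate 1 was inside it and replicate 4 above it. The log2 change was -0.08 (SE 0.116, 95% interval -0.34 to 0.18, limma adjusted p = 0.793). It was -0.16 when BPA replicate 4 was left out and -0.030 when BPA replicate 3 was.

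**Figure D3:**
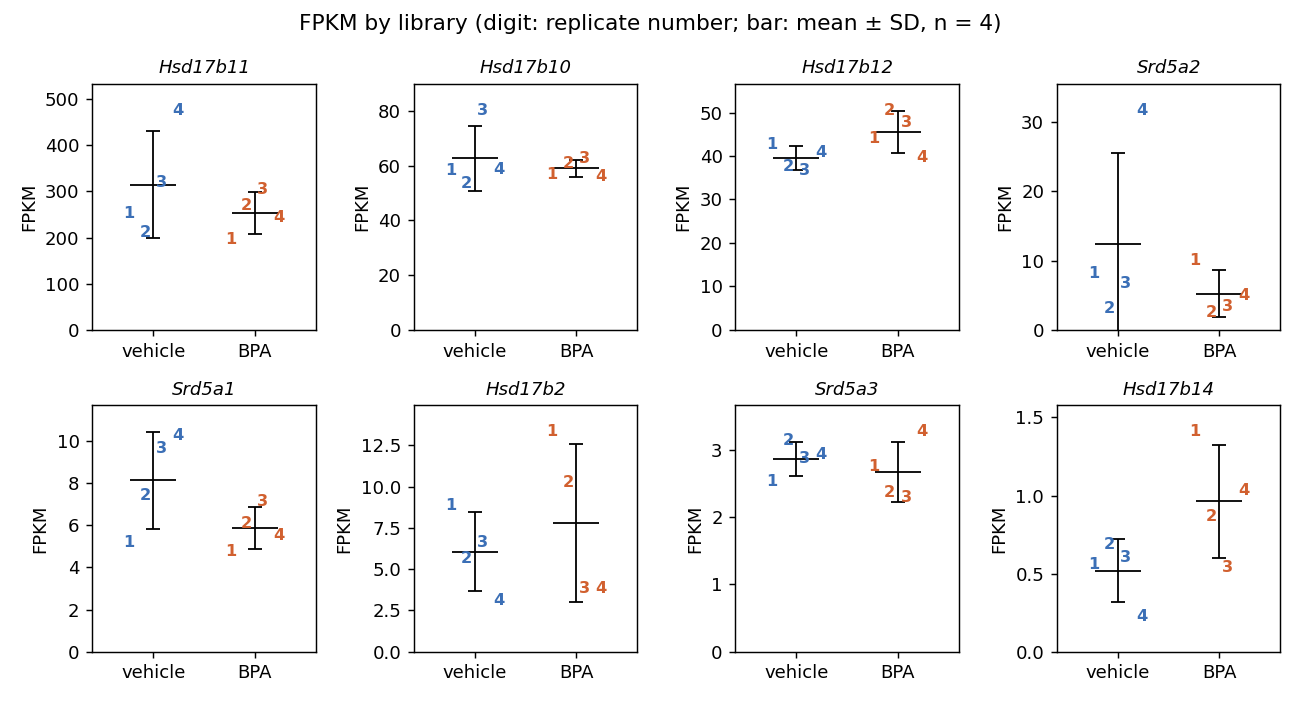
FPKM (linear axes from 0) of the 8 tested members; digits are replicate numbers (blue vehicle, orange BPA), and horizontal marks with bars are group means ± SD (n = 4). Vehicle replicate 4 is the highest library for Hsd17b11 at 476 FPKM, Srd5a1 at 10.3 FPKM and Srd5a2 at 31.7 FPKM. It is the lowest for Hsd17b2 and Hsd17b14. The groups overlap in every panel.

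The make-up of the reductases changed from library to library in both groups. Srd5a2 gave 51.6%, 22.3%, 34.7% and 70.6% of the summed reductase FPKM in vehicle and 57.1%, 23.2%, 26.4% and 36.0% in BPA. Srd5a2 thus exceeded Srd5a1 in vehicle replicates 1 and 4 and in BPA replicate 1, and fell below it in the other 5 libraries. The ratio of Srd5a2 to Srd5a1 ran from 0.409 to 3.09 in vehicle and from 0.420 to 2.10 in BPA. The summed level was 15.9, 13.6, 19.2 and 44.9 FPKM in vehicle and 17.5, 11.0, 12.8 and 13.7 FPKM in BPA. Apart from vehicle replicate 4, the sums lay between 11.0 and 19.2 FPKM.

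**Figure D4:**
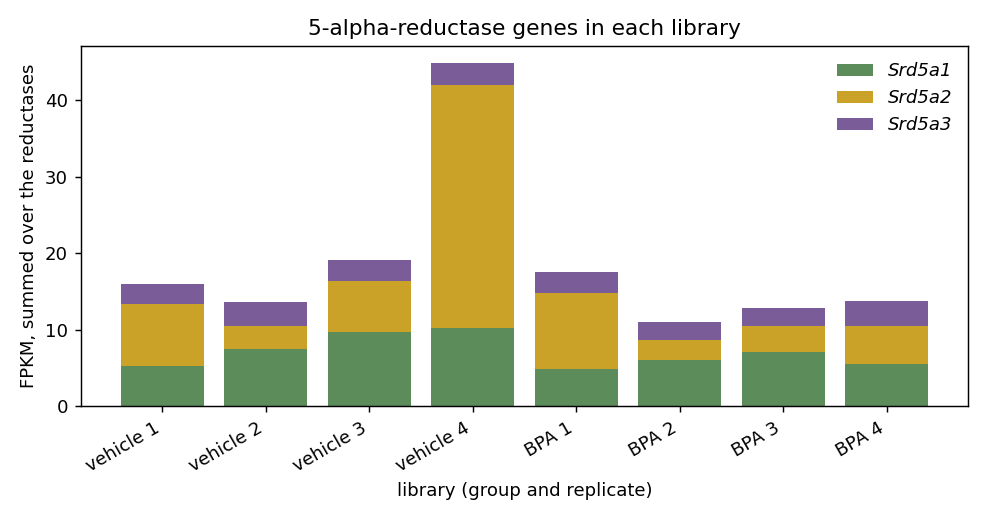
Stacked FPKM of Srd5a1, Srd5a2 and Srd5a3 in each library (bars start at 0). Srd5a2 runs from 2.55 FPKM in BPA replicate 2 to 31.7 FPKM in vehicle replicate 4, where the stack reaches 44.9 FPKM.

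Within groups, a few pairs of members varied together or in opposite directions. Of the 28 pairs of tested members, 15 had a correlation under 0.3 in size. Over 8 libraries, the 3 strongest correlations of log2(FPKM + 1) deviations from the group means were r = -0.885 between Hsd17b12 and Srd5a3, -0.855 between Hsd17b11 and Hsd17b14 and 0.768 between Hsd17b11 and Srd5a1. Without both replicates 4 these were -0.828, -0.78 and 0.682 over 6 libraries. The value for Hsd17b11 and Srd5a2 was 0.511 with all libraries and -0.277 without both replicates 4, so its sign rests on those libraries. These values, picked as the extremes and 1 that turned, are a description with no test, and the points share libraries and depth.

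By the same measure, the protein-coding genes most like Hsd17b11 were Cep295 at r = 0.989, Tmem259 at 0.981 and Smg9 at 0.972. Those most like Srd5a2 were Evl at 0.950, Mkl1 at 0.950 and Ttpal at 0.942. These are the highest values over 8 libraries among tested protein-coding genes, with predicted and clone-named genes left out. Of these 6 genes, 1 stayed among the most alike when the group means were kept in the values, and 1 when both replicates 4 were left out. The correlations of the 6 genes themselves ran from 0.871 (Ttpal) upwards over the 6 libraries that remain without both replicates 4. Those libraries are part of the 8 used to pick the genes, so the values are no independent check.

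Further dehydrogenases with activity at carbon 17, or related to them by sequence or name, held no called change. Of 10 listed, 7 were tested, 2 were above and 5 below 0, and 0 passed the test, with a median of -0.10. Hsd17b4, a peroxisomal enzyme of fatty acid breakdown, had means of 77.1 ± 10.6 FPKM with vehicle and 69.8 ± 3.77 FPKM with BPA (log2 change -0.13, limma adjusted p = 0.670). Hsdl2 was at 22.2 ± 1.39 and 26.7 ± 5.21 FPKM (0.24, adjusted p = 0.532), and Hsd17b7, an enzyme of cholesterol synthesis, at 8.65 ± 0.544 and 9.60 ± 1.02 FPKM (0.13, adjusted p = 0.619). Hsd17b13 is the lipid droplet enzyme closest to Hsd17b11 in sequence here, with 70.8% identity over 636 aligned bases of transcript, and lies 12351 bases from it on the same strand. It was at 3.29, 5.01, 12.2 and 1.02 FPKM in the vehicle libraries and 0.481, 6.40, 3.84 and 4.18 FPKM in the BPA libraries, with vehicle replicate 4 low where Hsd17b11 was high (log2 change -0.33, adjusted p = 0.846). That change ran from -0.78 without vehicle replicate 4 to 0.16 without BPA replicate 1. Hsd17b3, which makes testosterone in the testis, was at no more than 0.696 FPKM, and Hsd17b6 was listed at 0 in all libraries.

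Genes that make, modify or bind the same steroids were read beside the members. Among 12 tested genes of sex steroid handling, 5 were above and 7 below 0, 0 passed after adjustment and 3 had an unadjusted p under 0.05 (beside 11% of all tested genes), with a median of -0.03. Hsd3b3, of the family that forms androstenedione, was at 10.5, 6.24, 17.7 and 19.6 FPKM in the vehicle libraries and 3.27, 4.65, 10.3 and 3.97 FPKM in the BPA libraries (log2 change -1.14, limma adjusted p = 0.387). Hsd3b4 shares the family name, which does not give the reaction of each member. It was at 1.5, 1.33, 1.54 and 0.985 FPKM in vehicle and 6.27, 6.01, 0.976 and 6.25 FPKM in BPA (1.16, limma adjusted p = 0.387). In BPA, 3 libraries were above all vehicle libraries and replicate 3 was below them. With all libraries Hsd3b4 was not called. Without BPA replicate 3 its change was 1.62 and passed the test (limma adjusted p = 0.0175), where 4 genes passed over all genes. The library left out there is the one that went against the change, so nothing was read from that pass. Cyp19a1, the aromatase that makes estrogens, was listed at 0 throughout.

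The estrogen receptor gene Esr1 had means of 1.97 ± 0.483 FPKM with vehicle and 2.70 ± 0.204 FPKM with BPA (log2 change 0.33, limma adjusted p = 0.429), and Gper1, a membrane receptor described for estrogens, at 0.740 ± 0.383 and 0.339 ± 0.206 FPKM (-0.37, adjusted p = 0.490), where the vehicle mean alone reached 0.5 FPKM. Of the 14 tested kidney genes driven by androgens, 7 were above and 7 below 0 and 0 passed the test (median -0.02). Those with the smallest p were Slc22a28, an organic anion transporter family gene, at 100.5 ± 14.7 and 119 ± 7.32 FPKM (0.25, adjusted p = 0.496) and Cyp7b1, a steroid and oxysterol hydroxylase, at 40.6 ± 33.6 and 73.5 ± 55.8 FPKM (1.28, adjusted p = 0.609). The change of Cyp7b1 was 0.32 without vehicle replicate 4, where it was at 2.39 FPKM against 22.7 to 72.7 FPKM in the other vehicle libraries. For Slc22a28 it was 0.15 without vehicle replicate 3.

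The pathways in which members do work other than steroid conversion also held no called gene. Around Hsd17b12, 9 genes of very long chain fatty acid elongation were tested, 6 above and 3 below 0 (median 0.10), and 1 had an unadjusted p under 0.05, beside 11% of all tested genes: Elovl2 at 13.5 ± 2.44 and 17.3 ± 2.02 FPKM (0.34, limma adjusted p = 0.437). Elovl5, another elongase, was at 12.9 ± 1.16 and 16.1 ± 2.90 FPKM (0.29, adjusted p = 0.473). The groups did not overlap in 3 of these 9 genes (33.3%, beside 7.89% of all tested genes). Those genes were Elovl2, Hacd3 (0.10) and Tecr, which was lower in BPA (-0.17). In mitochondrial fatty acid synthesis the count was 1 of 9, and among lipid droplet genes 1 of 17. It was 0 in the lists of further dehydrogenases, sex steroid handling, receptors, androgen-driven genes, isoleucine breakdown and tRNA processing. Nothing was read from these counts of small lists. Around Hsd17b10, the 12 genes of isoleucine breakdown split 6 and 6 (median 0.01), with Bckdha, a subunit of the branched-chain ketoacid dehydrogenase, at 42.9 ± 3.53 and 34.4 ± 3.72 FPKM (-0.31, adjusted p = 0.407) and Acadsb, an acyl-CoA dehydrogenase, at 20.2 ± 3.19 and 24.4 ± 1.45 FPKM (0.27, adjusted p = 0.463). Its partners in mitochondrial tRNA processing were Trmt10c at 9.83 and 9.59 FPKM (-0.048, and 0.082 without BPA replicate 4), Elac2 at 8.19 and 8.81 FPKM (0.09) and 1110008L16Rik at 4.77 and 5.77 FPKM (0.23, adjusted p = 0.480). Around Hsd17b8, the 9 genes of mitochondrial fatty acid synthesis split 4 above and 5 below 0 (median -0.09), with Acsf3, the malonyl-CoA synthetase, at 23.8 ± 3.76 and 18.6 ± 1.84 FPKM (-0.33, adjusted p = 0.429) and Oxsm, the ketoacyl synthase, at 9.33 ± 0.966 and 11.1 ± 1.22 FPKM (0.22, adjusted p = 0.483).

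In the lipid droplet list around Hsd17b11, 17 genes were tested, 15 below and 2 above 0, with a median of -0.39 beside -0.01 over all genes and 0 called. Of these, 3 (Cidea, Plin1 and Plin4) reached 0.5 FPKM in the vehicle mean alone, so the level required for a test fixed their direction, and no direction of the list was read from this count or median. An unadjusted p under 0.05 was found for 2 of the 17, beside 11% of all tested genes. Pnpla2, the first lipase of triglyceride breakdown, was at 29.1, 42.9, 47.8 and 66.3 FPKM in vehicle and 29.4, 30.2, 33.6 and 29.2 FPKM in BPA (-0.53, limma adjusted p = 0.432). Lipe, the next lipase, was at 4.46 ± 2.06 and 2.46 ± 0.522 FPKM (-0.60, adjusted p = 0.432). Vehicle replicate 4, with the highest fat marker sum, was the highest library for both, and without it the changes were -0.35 and -0.37. In addition, 3 of the list's genes (Plin1, Cidec and Cidea) are themselves among the fat markers. Without both replicates 4 the list's median was -0.17, with 15 of 17 genes below 0. Those 17 still hold Cidea, Plin1 and Plin4, and no direction was read from this count either. Fat markers still summed to 3.22, 95.7 and 31.8 FPKM in vehicle replicates 1 to 3. In BPA replicates 1 to 3 they summed to 19.7, 5.53 and 20.4 FPKM. The part of fat RNA in the values of the list was not tested.

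Around Srd5a3, 21 genes of dolichol synthesis and use were tested, 10 above and 11 below 0 (median -0.03) and 0 passed. Alg12, a mannosyltransferase, was at 5.91, 6.08, 6.78 and 7.16 FPKM in vehicle and 3.77, 4.47, 5.03 and 4.52 FPKM in BPA (-0.46, limma adjusted p = 0.321). Alg14, which helps add the second sugar of the chain, was at 5.52, 5.32, 5.29 and 4.76 FPKM in vehicle and 6.40, 6.22, 7.22 and 7.67 FPKM in BPA (0.34, adjusted p = 0.365). The groups did not overlap in 3 of the 21 genes (14.3%, beside 7.89% of all tested genes): Alg12, Alg14 and Dolpp1, a dolichyl diphosphate phosphatase. Counts for the other lists are given above, and nothing was read from this one either. An unadjusted p under 0.05 was found for 4 of the 21, beside 11% of all tested genes.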

How the data were processed

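The deposited table gives FPKM for 54532 genes of 8 kidney libraries, computed by the authors. The submitters' processing notes name DESeq2 1.20.0 and GRCm38. No aligner, counter or strand setting is named in the sources used here. Columns with BPA in their name match the BPA labels. Names of the remaining 4 columns hold no treatment word; since vehicle is the only group left, they were read as vehicle, with their digit as the replicate. FPKM times length was a whole multiple of 1 read (within 0.01) in 100% of values of up to 20 steps.

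Limma 3.58.1 (R 4.3.3) was fitted on log2(FPKM + 1) of the authors' values, with trended, robust variance and no covariate, for 13376 genes with a mean of at least 0.5 FPKM. The script was tested on simulated data. Duplicate libraries were not found (chi-square per gene 14.3 to 91.0). Genes sharing exons came from GENCODE M21, in which 54409 identifiers were found, and related transcripts from blastn 2.17.0. Correlations of same-numbered libraries' deviations were 0.137, 0.019, 0.138 and -0.033, so the numbers were not taken as pairs. The members, companion lists and alternatives were chosen with earlier results of these data known. All members were named, in each companion list the 2 genes with the smallest p or, in short lists, any gene, and 3 genes most like the highest member of each family. Hsd17b3, Hsd17b4, Hsd17b6, Hsd17b13, Cyp19a1, Dolpp1, Hacd3 and Tecr fall outside that rule and were named after their values were seen. Some results that the rule names are not reported here. Figures used Python 3.11.15 and matplotlib 3.10.9.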

Additional observations from a re-analysis of the deposited data

Results flagged for a closer look

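In 72 groups of 4 libraries (36 genes named by rule), the gap of the highest or lowest library to its nearest neighbour was set against the group's whole range and its 95% critical value, which chance passes in about 1 group of 20. Of the 72 groups, 3 passed it, which is no more than that share. For Hsd17b1, vehicle replicate 4 was at 0.129 FPKM against 0.285 to 0.292 FPKM in the other vehicle libraries, a difference of 3 reads against 6 or 7. For Hsd3b4, BPA replicate 3 was at 0.976 FPKM against 6.01 to 6.27 FPKM in the other BPA libraries. For Ttpal, vehicle replicate 4 was at 3.82 FPKM against 2.76 to 2.92 FPKM in the other vehicle libraries.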

How the results depend on the processing

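The count of members called was 0 in all 24 alternatives, and the smallest adjusted p was 0.304 (Hsd17b14 with library weights). Alternatives that change only the filter, the gene set or the variance, or that add a replicate term, return the main estimate and cannot turn its direction. Of 191 estimates of members under alternatives, these included, 184 kept their direction. The exceptions were Hsd17b2 without vehicle replicate 4 or BPA replicate 1 (leave-one-out range -0.074 to 0.45) and at -0.21 in replicates 3 and 4 alone, Hsd17b10 at 0.012 with quantile normalization, without vehicle replicate 3 (leave-one-out range -0.14 to 0.054) and at 0.072 in replicates 1 and 2 alone, and Srd5a2 at 0.037 in replicates 1 and 2 alone. The cause was not tested. Over all genes, where 1 was called (1473 at an unadjusted p under 0.05), limma called 8 with library weights, 2 with a term for replicates 1 and 2 against 3 and 4, and 2 in replicates 1 and 2 alone. It called 0 by limma-voom on recovered reads (1529 at an unadjusted p under 0.05), 0 among protein-coding genes (1349) and 0 in replicates 3 and 4 alone (1508), and 0 to 4 with a library left out. With a replicate block 0 genes (1376 at an unadjusted p under 0.05) and 0 members were called. Of the 6 genes most alike, 1 remained with group means kept and 1 without both replicates 4. The order of levels kept 7 to 10 of 10 ranks. Whichever library was left out, 6 neighbour pairs differed. That count follows from their lead in 8 of 8 libraries, so it is no further check. The sign-flip test was not run in 4 vehicle libraries, where it cannot pass, and a mean of at least 1 FPKM left Hsd17b14 untested. The GC correction was added after seeing earlier results of these data. With it the changes were 0.28 for Hsd17b2, -0.026 for Hsd17b10, -0.32 for Hsd17b11 and 0.14 for Hsd17b12. They were 0.51 for Hsd17b14, -0.33 for Srd5a1, -0.82 for Srd5a2 and -0.027 for Srd5a3. Few reads lie behind Hsd17b1 and Hsd17b8.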
